A study of Mus musculus with 10 samples.

Results

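Immune checkpoint ligands and cell adhesion molecules are surface proteins through which a cell meets the immune cells around it. The 5 genes described here, Cd274, Pdcd1lg2, Cd47, Icam1 and Vcam1, were chosen by name among the 23337 gene symbols listed for every library. Their transcripts were counted in 10 stranded RNA-seq libraries from immortalised MEFs (mouse embryonic fibroblasts, connective-tissue cells). The groups were Slfn2 KO cells given mouse IFNβ (interferon-β, a type I interferon) at 5000 IU/ml for 6 h (2 libraries), untreated Slfn2 KO cells (2 libraries), Slfn2 WT cells given the same IFNβ (3 libraries) and untreated Slfn2 WT cells (3 libraries). The series asks how Slfn2, a Schlafen family gene that interferon induces, bears on type I interferon signalling and NF-κB. The replicates are wells plated from a KO and a WT culture, so p-values measure the spread between these libraries and not between independently derived lines. How the knockout was made and how the cells were immortalised are not given in the sources used here.

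The libraries held 13565815 to 16329729 reads. Slfn2 itself averaged 123 normalised reads in KO cells with IFN-β and 40.5 in untreated KO cells, against 516 in WT cells with IFN-β and 17.2 in untreated WT cells. Because reads over the whole gene cannot show a partial deletion, these levels do not settle the label, and KO and WT below mean the libraries so labelled. Of 14 fibroblast markers, 12 had at least 10 reads in every library. The lymphocyte markers Cd3e, Cd3g, Cd8a and Ms4a1 had 0 reads in all 10 libraries. Of 14 macrophage and dendritic cell markers, 6 were at 0 throughout (Fcgr1, Tyrobp, C1qa, C1qb, Emr1 and Sfpi1), while Cd14, Cd68 and Csf1r had at least 10 reads in every library. The summed level of these 14 was 149.5 to 207.6 normalised reads in KO libraries and 262.9 to 423.1 in WT libraries, and its part in the results below was not tested. In this sum Cd14 averaged 188.8 over all libraries, Cd68 36.3 and Csf1r 32.6, and the next highest, Fcer1g, 3.38. The summed fibroblast markers came to 323500 to 497500 normalised reads in KO libraries and 226600 to 332100 in WT libraries. Of all tested genes, 3.64% were lower in KO cells with IFN-β and 3.23% untreated. Of the 13 fibroblast markers that could be tested, 2 were lower and none higher in KO cells in both treatments. Their median log2 fold change was 0.24 with IFN-β and 0.19 untreated. The lower ones, Dcn and Lum, which encode small proteoglycans of connective tissue, had a log2 fold change of -4.44 (Dcn, limma adjusted p = 7.03e-06) and -4.06 (Lum, adjusted p = 0.0092) untreated. With the replicate number as a block in the fit, the collagen gene Col1a2 and the fibronectin gene Fn1 were also called, as higher in both treatments. In that fit 12.7% of all tested genes were higher with IFN-β and 13.5% untreated.

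Cd274 encodes PD-L1, the ligand of the inhibitory T-cell receptor encoded by Pdcd1, and Pdcd1lg2 encodes PD-L2, a second ligand of the same receptor. Cd47 encodes a membrane protein that binds Sirpa on macrophages and restrains engulfment. Icam1 and Vcam1 encode immunoglobulin-family adhesion molecules that hold leukocytes through integrins. Interferons are known to raise Cd274 through STAT and IRF transcription factors, and NF-κB is a known activator of Icam1 and Vcam1, best studied in endothelium.

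Cd274 lies on chromosome 19 at chr19:29367455-29388095 (GRCm38, plus strand), and Pdcd1lg2 follows it on the same strand at chr19:29410919-29471161, with a gap of 22824 bases. Cd47 lies at chr16:49800533-49915010 and Icam1 at chr9:21015985-21028817 (both plus strand), and Vcam1 at chr3:116109949-116129688 (minus strand), all 5 being protein-coding genes of GENCODE M21. The stretches just before the RefSeq start sites of Cd274, Pdcd1lg2 and Icam1 are shown because Cd274 rose with IFN-β while the other two were at or near 0. They are from RefSeq (GRCm38.p6, plus strand), 5′ to 3′, and capitals mark letters that match a searched motif. The Cd274 stretch, chr19:29367309-29367437, is the last 129 bases before its start. It leaves out bases that GENCODE M21 assigns to an untranslated exon of Plgrkt. Some Plgrkt transcripts start on the opposite strand up to 65 bases before the GENCODE start of Cd274. That gene reaches chr19:29367390, so the stretch shown, with its marked letters, still overlaps it. The Pdcd1lg2 stretch is chr19:29410669-29410918 and the Icam1 stretch is chr9:21015690-21015939.
Cd274: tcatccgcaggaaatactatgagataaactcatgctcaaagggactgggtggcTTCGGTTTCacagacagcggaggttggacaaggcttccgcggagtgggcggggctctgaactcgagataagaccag
Pdcd1lg2: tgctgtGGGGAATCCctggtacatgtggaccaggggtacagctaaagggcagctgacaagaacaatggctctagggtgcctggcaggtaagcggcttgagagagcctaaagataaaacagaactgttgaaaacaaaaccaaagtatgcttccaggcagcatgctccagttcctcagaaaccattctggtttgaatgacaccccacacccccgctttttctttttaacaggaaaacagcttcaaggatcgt
Icam1: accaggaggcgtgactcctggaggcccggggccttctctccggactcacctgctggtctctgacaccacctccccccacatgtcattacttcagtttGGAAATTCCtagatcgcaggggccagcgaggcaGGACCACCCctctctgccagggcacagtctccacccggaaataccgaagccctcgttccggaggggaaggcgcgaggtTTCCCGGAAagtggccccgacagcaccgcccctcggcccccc

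The motifs were searched on both strands in windows of 300 bases, 250 before and 50 after each start, for the 4 of 5 members that RefSeq's table holds and for all 32851 windows of that table. The interferon-stimulated response element, spelled GAAANNGAA with a further A, was in 3.44% of all windows and in none of the windows of Cd274, Pdcd1lg2, Cd47 and Icam1. GAAANNGAA without that A, which every match of the longer form contains and which was added after the longer form had been searched, was in 8.56% of windows. Cd274 held it once, as TTCGGTTTC on the minus strand from base -76. The STAT-type motif TTCNNNGAA was in 8.3% of windows, and Icam1 held TTCCCGGAA from base -42. The κB-type motif GGANNNTCC was in 8.62% of windows, with GGAAATTCC from base -153 of Icam1. A further form, GGGNNNTCC, was in 17.8%, with a match in Icam1 (GGACCACCC, base -120) and in Pdcd1lg2 (GGGGAATCC, base -244). The TATA-box core TATAAA, also added later, was in 13.6% of windows and in Icam1 from base 14, counting the RefSeq start as base 1, outside the stretch shown. The RefSeq start of Icam1, 21015940, lies before its GENCODE M21 start, 21015985. The same holds for Cd274, with starts at 29367438 (RefSeq) and 29367455 (GENCODE M21). The motif positions in both genes thus depend on the start used. No searched motif was in the windows of Cd47. A match is a description of letters and not of a bound site.

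With IFN-β, Cd274 rose by about 50-fold in both labelled genotypes. Its normalised reads (reads divided by the authors' size factor) were 1833 and 1031 in KO cells with IFN-β, against 32.5 and 22.6 in untreated KO cells. In WT cells they were 881, 813 and 867 with IFN-β, against 19.8, 11.6 and 20.65 untreated. Every IFN-β library was thus far above every untreated one (non-overlap in this direction was seen for 10.7% of all tested genes in KO cells and 7.48% in WT cells), and the 2 KO libraries with IFN-β differed from each other more than the 3 WT libraries did. The group means were 1432 ± 568 and 27.6 ± 6.99 in KO cells (SD, n = 2 each) and 853 ± 35.8 and 17.3 ± 4.98 in WT cells (SD, n = 3 each), IFN-β before untreated. The ratio of means was 52.0 in KO cells and 49.2 in WT cells. On the log2 scale with a pseudocount of 1, the fitted change was 5.61 ± 0.37 in KO cells (SE, limma adjusted p = 5.8e-05) and 5.58 ± 0.30 in WT cells (adjusted p = 1.17e-05). These changes ranked 70th of 12313 tested genes in KO cells and 62nd in WT cells. The call in KO cells held in 12 of 13 alternative settings and was lost where the 4 KO libraries were fitted alone (adjusted p = 0.0912).

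The untreated Cd274 level was low. It rested on 31 and 24 reads in untreated KO cells and on 18, 12 and 20 in untreated WT cells, while the IFN-β libraries held 1736 and 1131 reads in KO cells and 855, 813 and 900 in WT cells. Genes with a read and a unique annotated entry were ranked in each group by mean normalised reads per kilobase of exon. Cd274 stood at percentile 83.8 in KO cells with IFN-β and 25.02 in untreated KO cells. In WT cells it stood at percentile 75.25 with IFN-β and 24.4 untreated.

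**Figure D1:**
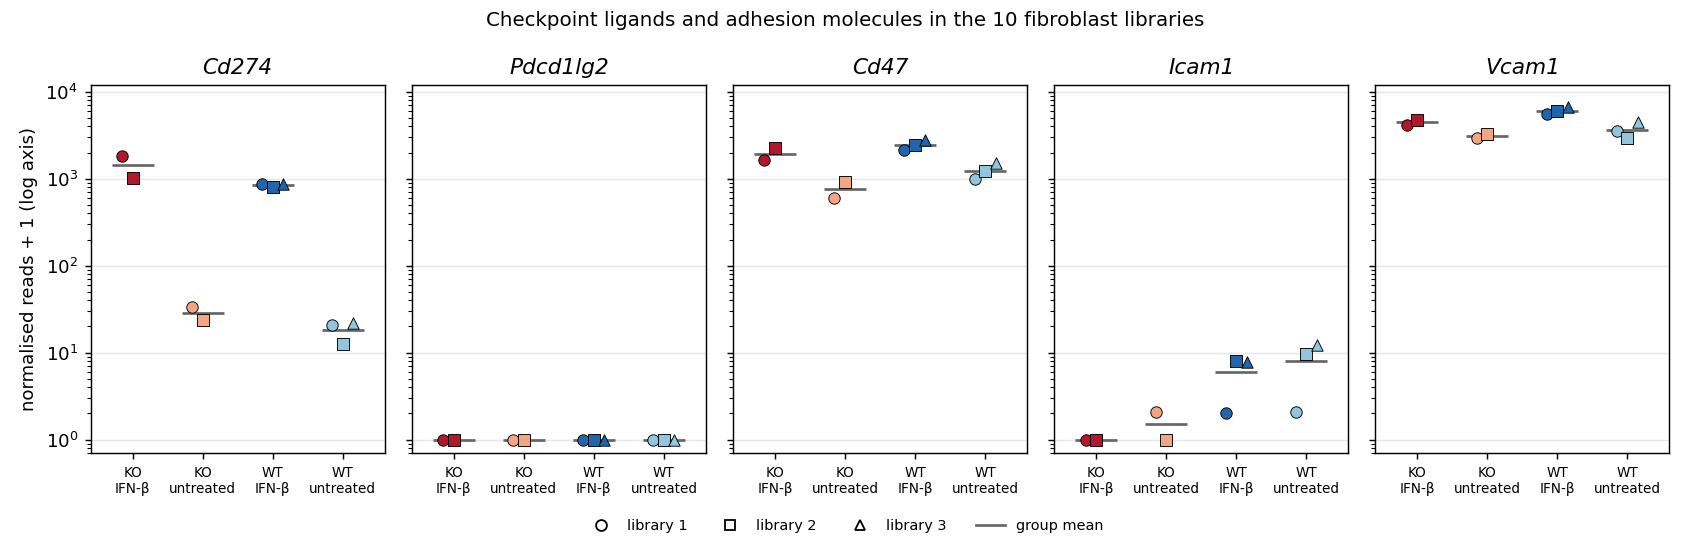
Normalised reads plus 1 (log axis) of the 5 genes in each of the 10 libraries, by group, with a marker for each library number and a line at the group mean. Cd274 separates IFN-β from untreated libraries in both genotypes, Cd47 and Vcam1 are high in all 4 groups, Icam1 stays under 12 normalised reads and Pdcd1lg2 is at 0 throughout.

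Pdcd1lg2 had 0 reads in all 10 libraries, IFN-β and untreated alike. A count of 0 leaves room for up to 3 reads per library, which is 2.73 to 3.29 normalised reads. Per kilobase of annotated exon, Cd274 was therefore at least 313-fold and 204-fold above Pdcd1lg2 in the KO libraries with IFN-β, and at least 147-fold to 162-fold above it in the WT libraries with IFN-β. These bounds cover counting error only. The Cd274 rise was thus not accompanied by a detectable Pdcd1lg2 transcript, although the genes are adjacent. Plgrkt, which encodes a plasminogen receptor and lies on the other side of Cd274, had a log2 fold change of 0.33 in KO cells and 0.16 in WT cells (limma adjusted p = 1 in each).

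Between genotypes, Cd274 was higher in KO cells by a ratio of 1.68 with IFN-β and 1.59 untreated, and the groups did not overlap in either treatment. Non-overlap in this direction was seen for 20% of all tested genes with IFN-β and for 15.7% untreated. The fitted difference was 0.69 ± 0.34 with IFN-β (limma adjusted p = 0.288) and 0.66 ± 0.34 untreated (adjusted p = 0.311), neither past the threshold of 0.05. Its size depended on single libraries. With IFN-β it was 0.27 without KO library 1 and 1.10 without KO library 2, and untreated it was 0.40 without KO library 1 and 0.91 without KO library 2. With the replicate number as a block, both passed, at 0.76 ± 0.21 (adjusted p = 0.0296) and 0.73 ± 0.21 (adjusted p = 0.0335). The blocked edgeR fit passed with IFN-β (adjusted p = 0.0185) and not untreated (adjusted p = 0.13). Leaving out 1 library from the blocked limma fit kept the call in 5 of 10 cases with IFN-β (adjusted p from 0.0187 to 0.25) and in 4 of 10 untreated (0.0172 to 0.163). With IFN-β it was lost without WT untreated library 3, without WT IFN-β library 1 or 3 and without either KO IFN-β library. Untreated it was lost without WT untreated library 1 or 2, without WT IFN-β library 1 or 3 and without either untreated KO library. Within number 1 the KO library was 2.08 times the WT library with IFN-β, and within number 2 it was 1.27 times.

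Cd47 was already abundant without IFN-β and was higher with it in every pair of libraries. KO cells with IFN-β had 1631 and 2258 normalised reads, against 592 and 912 in untreated KO cells. WT cells with IFN-β had 2141, 2450 and 2827, against 979, 1238 and 1507 in untreated WT cells. The IFN-β and untreated groups did not overlap in either genotype (the background is that given for Cd274), yet the libraries within each group were spread, and the library numbered 1 was the lowest in all 4 groups. The ratio of means was 2.58 in KO cells (1944 ± 444 against 752 ± 226, SD, n = 2 each) and 1.99 in WT cells (2473 ± 344 against 1242 ± 264, SD, n = 3 each). The fitted change passed in KO cells (1.38 ± 0.28, limma adjusted p = 0.0441) and not in WT cells (1.01 ± 0.23, adjusted p = 0.0689). With the replicate block it passed in both (adjusted p = 0.000262 in KO cells and 0.00045 in WT cells), and it did so in all 10 blocked fits that left out 1 library. Without the block, the KO call was kept in 2 of 10 such fits, those without KO untreated library 2 and without WT untreated library 1, and adjusted p ran from 0.0312 to 0.418. The WT change passed without the block where either untreated KO library was left out (adjusted p = 0.0423 without library 2 and 0.0424 without library 1). It also did so in DESeq2 (adjusted p = 0.0042) and where the WT libraries were fitted alone (limma adjusted p = 0.0446). In 13 other settings the KO call held in 9. It was lost in edgeR without the block, with total-read scaling, with numbers 1 and 2 alone and with KO libraries alone. Which genotype passed thus depended on the fit.

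Within a replicate number the Cd47 ratio of IFN-β to untreated was 2.75 and 2.48 in KO cells and 2.19, 1.98 and 1.88 in WT cells. The interaction of genotype and IFN-β did not pass, at 0.38 ± 0.36 without the block (limma adjusted p = 1) and 0.38 ± 0.16 with it (unadjusted p = 0.0448, adjusted p = 1.000). Without the block it was 0.066 where untreated KO library 1 was left out and 0.69 where untreated KO library 2 was.

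In the untreated state, Cd47 was lower in KO cells, at 0.606 times the WT mean, and the groups did not overlap, as held for 15.9% of all tested genes in this direction. The fitted difference was -0.73 ± 0.26 (limma adjusted p = 0.139), and it was -0.42 without KO library 1 and -1.04 without KO library 2. It passed with the block, at -0.61 ± 0.12 (adjusted p = 0.0077), and this was kept in 9 of 10 blocked fits that left out 1 library, the exception being the fit without KO untreated library 1 (adjusted p = 0.0742). With IFN-β the ratio was 0.786, the groups overlapped, and the difference passed neither without the block (-0.36 ± 0.26, adjusted p = 0.494) nor with it (-0.23 ± 0.12, adjusted p = 0.187).

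Vcam1 was high in all 4 groups and had the smallest fitted IFN-β change of the 3 members that could be tested. It had 4172 and 4715 normalised reads in KO cells with IFN-β, against 2944 and 3273 in untreated KO cells. In WT cells it had 5510, 6086 and 6685 with IFN-β, against 3530, 2910 and 4542 untreated. Again no IFN-β library overlapped its untreated group, as held for 10.7% of tested genes in KO cells and 7.48% in WT cells. The ratio of means was 1.43 in KO cells (4443 ± 384 against 3109 ± 233, SD, n = 2 each) and 1.67 in WT cells (6094 ± 588 against 3661 ± 824, SD, n = 3 each). Neither fitted change passed without the block, at 0.51 ± 0.21 in KO cells (limma adjusted p = 0.846) and 0.75 ± 0.17 in WT cells (adjusted p = 0.0689). With the block the WT change passed (adjusted p = 0.0051) and the KO change did not (adjusted p = 0.122). Without WT untreated library 3 the WT change passed without the block as well (adjusted p = 0.0238), and so it did in DESeq2 (adjusted p = 0.0064). The interaction was -0.24 ± 0.27 (adjusted p = 1), so a difference between the genotypes was not shown.

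Between genotypes, Vcam1 with IFN-β was lower in KO cells, at 0.729 times the WT mean with no overlap, where 20.4% of tested genes did not overlap in this direction. The fitted difference was -0.45 ± 0.19 (limma adjusted p = 0.218, and 0.0992 with the block). Untreated, the groups overlapped and the ratio was 0.849 (-0.21 ± 0.19, adjusted p = 0.601). Without WT untreated library 2, the lowest of its group, the blocked fit called the rise of Vcam1 with IFN-β in KO cells (adjusted p = 0.0051) and its lower level in KO cells with IFN-β (adjusted p = 0.0049) and untreated (adjusted p = 0.0257). Vcam1 is best known from endothelium. Of 12 endothelial markers, Tie1, Cldn5 and Erg were at 0 in all libraries and only Flt1 and Egfl7 had at least 10 reads in every library. Their summed level was 99.3 to 158 normalised reads in KO cells with IFN-β, 107 to 152 in untreated KO cells, 349 to 509 in WT cells with IFN-β and 366 to 511 in untreated WT cells. Over all libraries Flt1 averaged 197 normalised reads and Egfl7 94.9, and the next highest of the list, Cdh5, 4.25. The part of the endothelial markers in the Vcam1 difference was not tested. In bulk RNA, fewer cells of a type and less RNA per cell cannot be told apart.

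Icam1 was at or near 0 in every library and too low for the test. It had 0 and 0 reads in KO cells with IFN-β and 1 and 0 in untreated KO cells, against 1, 7 and 7 in WT cells with IFN-β and 1, 9 and 11 in untreated WT cells. All 4 KO libraries and the WT libraries numbered 1 thus held at most 1 read, while the WT libraries numbered 2 and 3 held 7 to 11. Untreated, the KO to WT ratio of summed reads, scaled by the size factors, was 0.0688 (95% counting interval 0.00166 to 0.428). This interval pools the libraries of a group and leaves out the spread between them, which in untreated WT cells ran from 1 to 11 reads. With IFN-β, where KO cells held 0 reads and WT cells 15, no fold is given, since WT library 1 with its 1 read lies under the floor of 3 reads per library. With no filter on low counts the fitted differences were -2.32 ± 0.84 with IFN-β (limma adjusted p = 0.176) and -2.14 ± 0.84 untreated (adjusted p = 0.215). No rise with IFN-β was detectable at this depth, with a fitted change of -0.52 ± 0.93 in KO cells and -0.33 ± 0.76 in WT cells (adjusted p = 1 in each). Its family neighbours on chromosome 9 were low as well. Icam4 had 1 read in 1 WT library with IFN-β and 0 elsewhere, and Icam5, a telencephalic member of the family, averaged 26.3 normalised reads in KO cells with IFN-β and 29.5 in untreated KO cells, against 38.1 in WT cells with IFN-β and 43.6 in untreated WT cells.

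**Figure D2:**
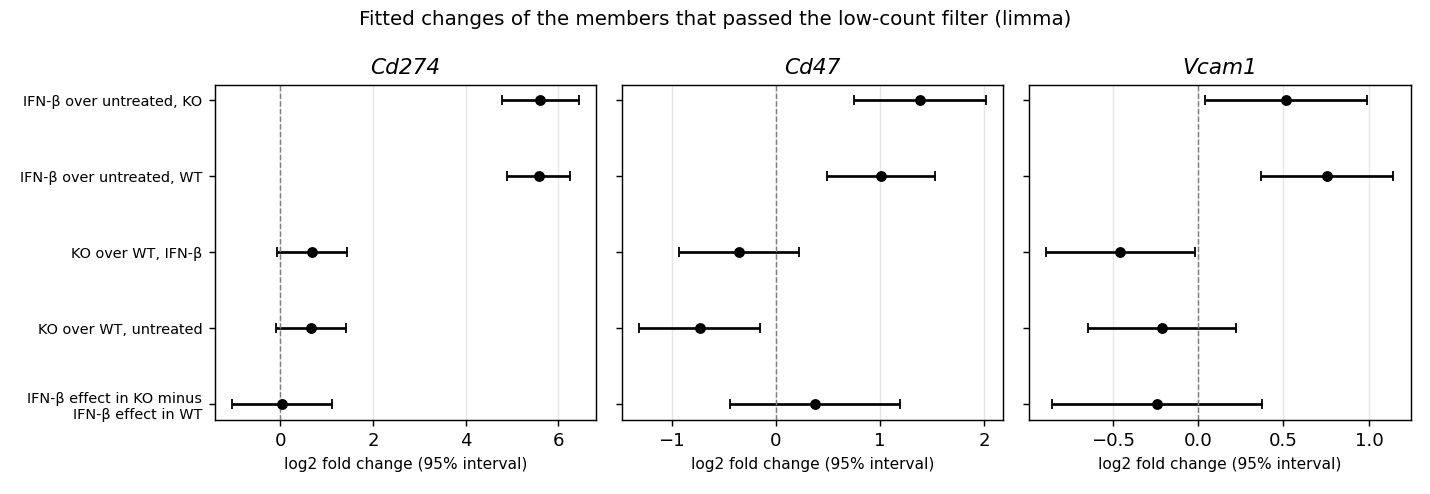
Fitted log2 fold changes (points) with 95% intervals (bars) of Cd274, Cd47 and Vcam1, the members that passed the low-count filter, for IFN-β over untreated, KO over WT and the interaction, from limma without the block. The IFN-β intervals of Cd274 lie above 4.7 in both genotypes, and all 3 interaction intervals cross 0.

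Of the 3 members that could be tested, 2 rose with IFN-β in KO cells, where 1.83% of 12313 tested genes rose, and 1 rose in WT cells, where 2.21% did. With the block, 2 rose in KO cells against 3.37% of tested genes, and 3 in WT cells against 4.68%. In KO against WT comparisons no member passed without the block in either treatment. The background with IFN-β was 2.92% higher and 3.64% lower, and untreated it was 3% higher and 3.23% lower. With the block, Cd274 was higher in both treatments and Cd47 lower untreated, where the untreated background was 13.5% higher and 13.1% lower, and the IFN-β background 12.7% higher and 13.3% lower. No gene passed the interaction in limma over all libraries without the block (0%, with 36 genes at an unadjusted p under 0.05) or with it (0%), nor in edgeR, and 1 passed in DESeq2. In blocked limma fits that left out 1 library, 0 to 4 genes passed, 4 of them without untreated KO library 2, and no member was among them. The 95% interval of the Cd274 interaction was -1.04 to 1.11, so differences of up to about the size of a doubling are within its error. The interval was -0.44 to 1.20 for Cd47 and -0.85 to 0.37 for Vcam1.

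**Figure D3:**
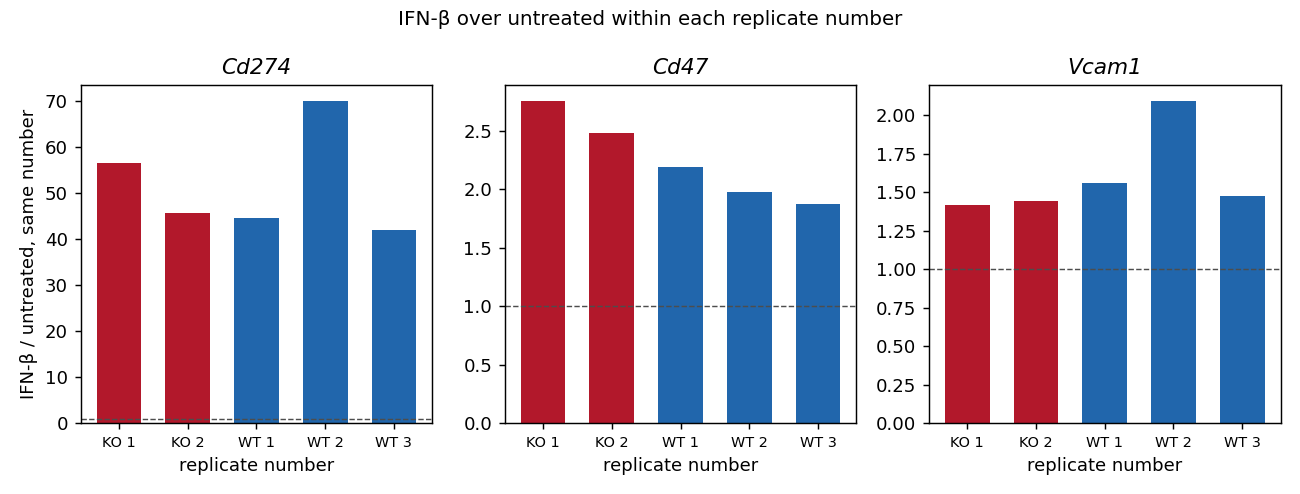
Ratio of IFN-β to untreated normalised reads within each replicate number, for Cd274, Cd47 and Vcam1, with KO pairs left of WT pairs and a dashed line at 1. Ratios run from 42.0 to 70.0 for Cd274, from 1.88 to 2.75 for Cd47 and from 1.42 to 2.09 for Vcam1.

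Compared per kilobase of annotated exon, Vcam1 stood above Cd47 and Cd47 above Cd274 in 9 of 10 libraries, the exception being KO library 1 with IFN-β. The length used was the union of all annotated exons, 8870 bases for Vcam1, 6276 for Cd47 and 3622 for Cd274. Ratios between genes depend on this choice, and lengths of single transcripts were not tested. In untreated cells Vcam1 led with 332 and 369 normalised reads per kilobase in KO cells and 398, 328 and 512 in WT cells. Cd47 followed with 94.4 and 145 in KO cells and 156, 197 and 240 in WT cells, and Cd274 lay far below with 8.97 and 6.24 in KO cells and 5.46, 3.21 and 5.7 in WT cells. With IFN-β, Cd274 came closer to both. In KO library 1 with IFN-β, Cd274 was 1.95 times Cd47 and 1.08 times Vcam1, the single library in which it led, and in KO library 2 it was 0.791 times Cd47. In WT libraries with IFN-β, Cd274 was 0.713, 0.575 and 0.531 times Cd47. The order of Cd274 and Cd47 in KO cells with IFN-β was therefore not settled by the 2 libraries.

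The replicate number moved some members as well. Over all groups, Cd47 was higher in libraries numbered 2 than in those numbered 1 by 0.41 on the log2 scale (limma adjusted p = 0.0060), and Cd274 was lower (log2 difference -0.54, adjusted p = 0.0197). Vcam1 had a value of 0.05 (adjusted p = 0.702). Between these numbers 48.6% of all tested genes passed. Number 3, which only the WT groups hold, was compared with number 1 in the same fit. Cd47 was higher in number 3 by 0.58 (limma adjusted p = 0.0102). The difference was 0.38 for Vcam1 (adjusted p = 0.0663) and -0.04 for Cd274 (adjusted p = 0.891). Between numbers 3 and 1, 24.6% of all tested genes passed. The labels do not say what a number marks.

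Over the 10 libraries, the pattern of Cd274 was most like that of Zc3hav1, an antiviral RNA-binding protein (Pearson r = 0.988 on log2 values), Tor1aip1, a nuclear envelope protein (r = 0.987), and Ftsjd2, an mRNA cap methyltransferase (r = 0.987). Cd47 was most like the guanylate-binding protein genes Gbp1 (r = 0.986) and Gbp2 (r = 0.984) and Erap1, which trims peptides for MHC class I (r = 0.985). Vcam1 was most like Fam123b (r = 0.971), Cox15, an enzyme of heme A synthesis (r = 0.961), and Trip12, a ubiquitin ligase (r = 0.953). Among the members, r was 0.769 for Cd274 and Cd47, 0.762 for Cd274 and Vcam1 and 0.906 for Cd47 and Vcam1. These values describe 10 libraries that share treatment, genotype and replicate number.

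Of the leukocyte receptor chains that bind these ligands, most were low or at 0, and Itgb7 in WT cells was an exception. Pdcd1 had 1 read in 1 WT library with IFN-β, and Itgal and Itgam, integrin chains that bind Icam1, had at most 2 reads in any group. Itgb2, the chain that pairs with both, was low, with 22 reads in KO cells with IFN-β and 24 in untreated KO cells, against 47 in WT cells with IFN-β and 62 in untreated WT cells. Itga4, a chain of the Vcam1 receptors, had 2 reads in KO cells with IFN-β and 4 in untreated KO cells, against 1 in WT cells with IFN-β and 0 in untreated WT cells. Sirpa, the Cd47 receptor, averaged 17.9 normalised reads in KO cells with IFN-β and 18.4 in untreated KO cells, against 16.9 in WT cells with IFN-β and 16.4 in untreated WT cells. Partners found on fibroblasts were abundant. Thbs1, a secreted ligand of Cd47, ranged from 4392 to 59850 normalised reads, and Itgb1 from 10670 to 26910. Rgmb, which binds Pdcd1lg2, averaged 404 in KO cells with IFN-β and 337 in untreated KO cells, against 277 in WT cells with IFN-β and 279 in untreated WT cells.

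Of 19 receptors and binding partners, 12 could be tested and none passed for IFN-β in KO or WT cells (median log2 fold change -0.01 and 0.02, against -0.03 over all tested genes in each). Between genotypes without the block, 3.64% of all tested genes were lower and 2.92% higher in KO cells with IFN-β. Untreated, 3.23% were lower and 3% higher. Of the 12 tested partners, 1 was lower and 1 higher in both treatments. With the block, 2 were higher and 2 lower with IFN-β, and 1 was higher and 3 lower untreated, set against 12.7% higher and 13.3% lower with IFN-β and 13.5% higher and 13.1% lower untreated over all tested genes. The further calls were Rgmb, higher with IFN-β (adjusted p = 0.0181), Thbs2, lower in both treatments, and Ezr, which encodes the membrane linker ezrin, lower untreated. Itgb7, which pairs with Itga4 in a Vcam1 receptor, averaged 5.01 normalised reads in KO cells with IFN-β, against 341 in WT cells with IFN-β (log2 fold change -6.39 ± 1.09, limma adjusted p = 0.0095), and 9.16 in untreated KO cells, against 394 in untreated WT cells (-5.22 ± 1.09, adjusted p = 0.0238). Itgb3, whose protein pairs with that of Itgav, was higher in KO cells by 3.43 ± 0.74 with IFN-β (adjusted p = 0.0264) and by 3.38 ± 0.74 untreated (adjusted p = 0.0288).

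Of 27 other checkpoint ligands, 14 could be tested. With IFN-β, 1.83% of all tested genes rose in KO cells and 2.21% in WT cells. Of these 14 ligands, 1 rose in each genotype. This was Lgals9, which encodes galectin-9, a ligand of the receptor TIM-3. It averaged 5754 normalised reads in KO cells with IFN-β and 885 in untreated KO cells (log2 fold change 2.73 ± 0.29, limma adjusted p = 0.000766), and 5690 in WT cells with IFN-β and 1222 in untreated WT cells (2.24 ± 0.24, adjusted p = 0.000582). The list's median was 0.19 in KO cells and 0.26 in WT cells. H2-T23, the mouse Qa-1 class I chain that the inhibitory NKG2A receptor reads, passed in both genotypes with the block (adjusted p = 0.018 in KO cells and 0.0258 in WT cells) and in neither without it. Cd86 had 0 reads throughout and Cd80 averaged at most 4.08 normalised reads in a group. Nectin2, which in human cells is a ligand of the receptor PVRIG and is listed here as Pvrl2, was lower in KO cells in both treatments, by a log2 fold change of -3.21 ± 0.44 with IFN-β (adjusted p = 0.0033) and -3.13 ± 0.44 untreated (adjusted p = 0.0038). No other ligand passed between genotypes without the block. With it, 2 more were higher in each treatment, the TNF-family gene Tnfsf18 in both, Tnfsf15 of the same family with IFN-β and Btn2a2, a butyrophilin, untreated. Of all tested genes, 12.7% were higher with IFN-β and 13.5% untreated in the blocked fit.

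Of 27 other adhesion molecules, 14 could be tested and none passed for IFN-β in either genotype (median log2 fold change -0.0019 in KO cells and -0.10 in WT cells). Cd34, a sialomucin that selectins can bind, was higher in KO cells in both treatments, averaging 6075 normalised reads against 1914 in WT cells with IFN-β (1.69 ± 0.21, limma adjusted p = 0.0020), and 5726 against 1943 untreated (1.57 ± 0.21, adjusted p = 0.0030). Jam3, a junctional adhesion molecule, was lower in untreated KO cells (-0.77 ± 0.18, adjusted p = 0.0405), and with IFN-β it passed with the block only (adjusted p = 0.0057, against 0.0759 without it). With the block, 3 of the list were higher and 2 lower with IFN-β (12.7% and 13.3% of all tested genes). Untreated, 3 of the list were higher and 3 lower (13.5% and 13.1% of all tested genes). Beside Cd34 and Jam3 these were Selp and F11r (higher) and Cd151 (lower) in both treatments and Vcan (lower) untreated. The 24 chromosome neighbours of the members included 19 that could be tested. None passed in any of the 5 comparisons without the block. With it, 1 rose with IFN-β in WT cells (Bbx, near Cd47), where 4.68% of all tested genes rose. In KO cells 1 fell with IFN-β (S1pr2, near Icam1), where 0.114% of all tested genes fell. Between genotypes with the block, 4 were higher in KO cells with IFN-β (Dph5 and Extl2 near Vcam1, Insl6 and Plgrkt near Cd274) and 1 lower (S1pr2). Untreated, 1 was higher (Extl2). Of all tested genes, 12.7% were higher and 13.3% lower with IFN-β, and 13.5% were higher untreated.

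All 32 regulators reported for Cd274, Icam1 and Vcam1 could be tested, and 6 rose with IFN-β in each genotype. Of all tested genes, 1.83% rose in KO cells and 2.21% in WT cells. Stat2, a transcription factor of type I interferon signalling, had a log2 fold change of 5.26 ± 0.52 in KO cells and 4.31 ± 0.42 in WT cells. Irf9, which acts with Stat2, had 3.35 ± 0.27 in KO cells and 3.02 ± 0.22 in WT cells. Socs1, which dampens JAK kinase signalling, had 3.15 ± 0.23 in KO cells and 2.15 ± 0.19 in WT cells, with limma adjusted p-values of at most 0.000505 for these 3 genes. Irf2 and Zfp36 passed as well. Irf1, a known activator of Cd274, passed with the block in both genotypes (2.24 in KO cells, adjusted p = 0.000551, and 1.78 in WT cells, adjusted p = 0.000535), and without it in neither (adjusted p = 0.137 and 0.124). None of the NF-κB genes Nfkb1, Nfkb2, Rela, Relb, Nfkbia and Tnfaip3 passed for IFN-β with or without the block. With the block, 9 regulators rose in KO cells, against 3.37% of all tested genes, and 11 in WT cells, against 4.68%. The list's median was 0.15 in KO cells and 0.16 in WT cells. Between genotypes, Socs3, an inhibitor of cytokine signalling, was lower in KO cells by a log2 fold change of -1.81 ± 0.39 with IFN-β (adjusted p = 0.0263) and -1.99 ± 0.39 untreated (adjusted p = 0.0177). Cmtm4, which stabilises the PD-L1 protein in human cells, was lower with IFN-β (-0.81 ± 0.19, adjusted p = 0.0392). With the block, 7 of the 32 regulators were lower in KO cells with IFN-β (13.3% of all tested genes were) and 9 untreated (13.1%), and 4 were higher with IFN-β (12.7%) and 2 untreated (13.5%).

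**Figure D4:**
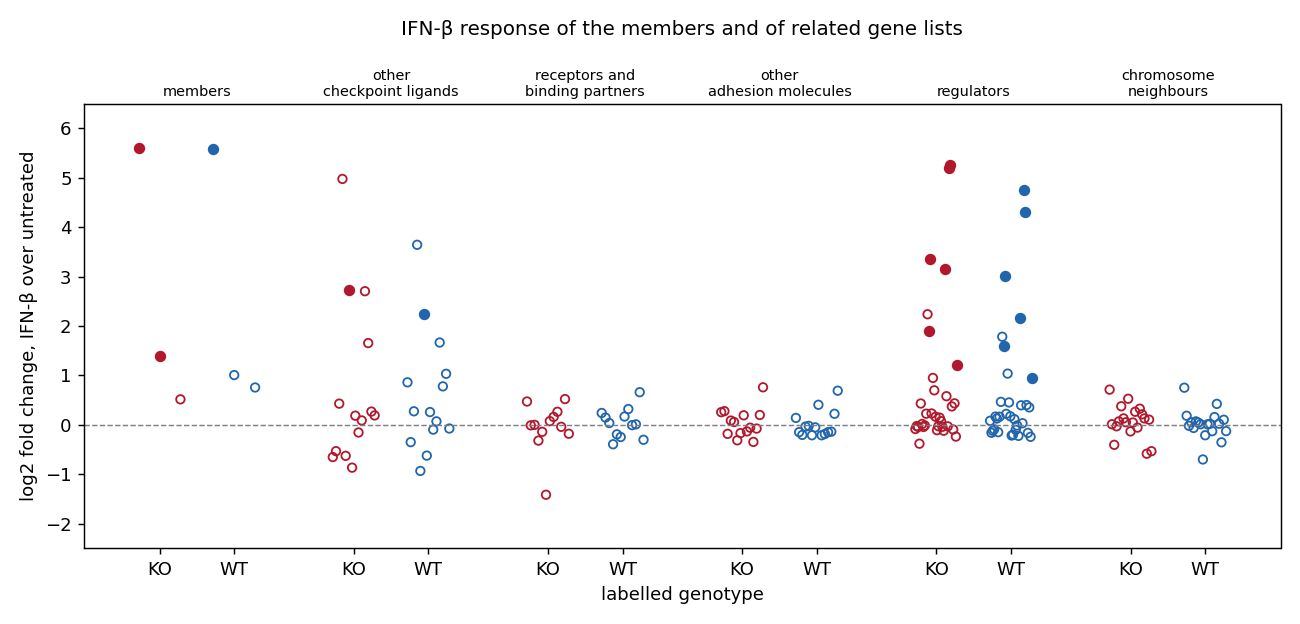
Log2 fold change with IFN-β (limma, no block) of the tested members and of 5 related gene lists, with KO left of WT in each list. Filled points passed at an adjusted p under 0.05 and open points did not. Filled points appear among the members, the other checkpoint ligands (Lgals9) and the regulators, and in none of the other 3 lists.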

How the data were processed

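The authors deposited a signal per gene and library: read counts divided by a size factor, 23337 gene symbols each. The submitters' processing notes name cutadapt 1.13, STAR 2.5.2a, HTSeq and DESeq2 as tools and mm10 as the genome. The annotation and strand setting are not given in the sources used here, so antisense genes that overlap exons of Vcam1, Icam1 and Cd274 cannot be told apart from them. All deposited values were whole multiples of 1 read's worth within 0.001 reads, so reads were recovered. In WT IFN-β library 2 that step is almost 1, so low values there are close to whole numbers, and its reads were recovered with the same step.

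Tests used limma 3.58.1 with a mean-variance trend, in R 4.3.3, on log2 of normalised reads plus a pseudocount of 1, with 4 group means over 10 libraries, two-sided. The low-count filter was filterByExpr (edgeR 4.0.16, minimum count 10), which left 12313 genes. P-values were adjusted over these by Benjamini-Hochberg, with a call under 0.05. Fold changes understate low genes. Alternatives were other pseudocounts, filters and scalings, edgeR and DESeq2 1.42.0 on recovered reads, the replicate block, subsets, and leaving out each library. The fit was tested on simulated data that held IFN-β changes and no effect of genotype or replicate number. That test does not bear on the calls that the block changes.

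Replicate numbers pair the samples, as the data show and the labels do not state. Same-number libraries of different groups deviated together from their group means (r of 0.48 to 0.87 over 13 pairs), and the highest r between different numbers was 0.32. In a group of 2 libraries the deviations mirror each other. The 13 pairs are therefore not independent, and the contrast with different numbers is partly built in. Blocked values stand beside member results whose call they change, and blocked counts beside the counts of each list.

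The members, gene lists and motifs were chosen with earlier results of these data known. Named genes were the members, up to 4 passing genes per list and comparison by adjusted p, binding partners, and the 3 genes most correlated with each member. The lists were other checkpoint ligands, receptors and binding partners, other adhesion molecules, regulators, chromosome neighbours and cell type markers. Irf1, H2-T23, Cd86, Icam4, Icam5, Itgb2, Plgrkt, the other chromosome neighbours, the genes named for the block only and the NF-κB genes were added after their values were seen. Some genes of these lists are not reported here by name. Gene positions are from GENCODE M21, and older symbols were matched through RefSeq synonyms.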

Additional observations from a re-analysis of the deposited data

How the results depend on the processing

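The rise of Cd274 with IFN-β kept its direction in all settings run and its call in all but the fit of KO libraries alone. The number of members called for IFN-β in KO cells was 2, and 1 with scaling to total reads, with edgeR and with numbers 1 and 2 alone, and 0 where KO libraries were fitted alone. In WT cells it was 1, and 3 with DESeq2 and with the replicate block in limma and in edgeR, and 2 where WT libraries were fitted alone. Leaving out 1 library without the block gave 1 to 2 members in either genotype. Blocked fits without 1 library, an alternative chosen after seeing the data, gave 3 members in WT cells each time. In KO cells such fits gave 3 without WT untreated library 2, where Vcam1 was called as well, and 2 otherwise. In KO against WT cells with IFN-β, the count was 0, and 1 with the block in limma and in edgeR, and 0 to 2 in blocked fits without 1 library. Untreated, it was 0, and 2 with the block in limma, 1 in edgeR, and 0 to 2 in blocked fits without 1 library. In limma over all libraries the block changed no other call of a member. In edgeR, Cd47 in KO cells passed for IFN-β with the block (adjusted p = 0.000266) and not without it (adjusted p = 0.0579). With a minimum count of 5, also chosen after seeing the data, Icam1 did not pass between genotypes (adjusted p = 0.187 with IFN-β and 0.225 untreated).

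Over all genes, the block raised the number called from 227 to 429 for IFN-β in KO cells, from 272 to 609 in WT cells, from 807 to 3203 for KO against WT with IFN-β and from 767 to 3275 untreated. In the same order edgeR with the block called 425, 619, 3285 and 3343. DESeq2 called 410 for IFN-β in WT cells, 1504 for KO against WT with IFN-β and 1513 untreated. Only the groups compared gave 3 for IFN-β in KO cells and 246 for KO against WT untreated, and numbers 1 and 2 alone gave 152, 298 and 292 for WT IFN-β and the 2 genotype comparisons. Leaving out 1 library without the block gave 132 to 217, 194 to 291, 285 to 850 and 340 to 685. Blocked fits without 1 library gave 267 to 551, 363 to 587, 1211 to 4469 and 1243 to 3276. Of these, counts more than 1.5 times under the full blocked fit came without KO IFN-β library 2 (267) for IFN-β in KO cells, and without WT IFN-β library 3 (363) or 1 (400) or WT untreated library 3 (368) for IFN-β in WT cells. For KO against WT with IFN-β they came without KO IFN-β library 2 (1211) or 1 (1489) or WT IFN-β library 2 (2027) or 1 (2031), and untreated without KO untreated library 2 (1243) or 1 (1970).

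The Cd274 interaction, 0.03, changed sign to -0.10 with numbers 1 and 2 alone and ran from -0.38 to 0.45 without 1 library, and from -0.16 to 0.23 in blocked fits without 1 library (-0.078 without WT IFN-β library 1). The untreated Vcam1 genotype difference ran from -0.29 to 0.0087 in blocked fits without 1 library. The cause was not tested. Restricting the motif search to the 250 bases upstream lowered the shares to 2.98%, 7.13%, 7.02%, 7.27%, 15.2% and 12.4%, and all matches in the members but TATAAA in Icam1 lie in that part. Depth limits Icam1 and Pdcd1lg2, and untreated Cd274 rests on 12 to 31 reads.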
